A study of Mus musculus with 6 samples.

Results

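The genes described here are 10 genes of mitophagy and autophagosome formation, found by symbol through their Ensembl identifiers among the 30409 genes of the deposited RNA-seq files. They are the mitophagy receptor genes Bnip3l, Bnip3 and Fundc1, the kinase genes Pink1 and Ulk1, the adaptor gene Sqstm1, the Atg8-family genes Gabarapl1, Gabarapl2 and Map1lc3b, and the transcription factor gene Foxo3. All 10 were present in each file. RNA came from bone marrow cells of C57BL/6 mice, sorted in the Lineage-Sca1+cKit+CD34-Flk2- gate of long-term blood stem cells (LT-HSCs). There were 4 libraries of 1 sample each: Twist1 conditional knockout (cKO) and wild type (WT) taken 12 days after irradiation, and Twist1 cKO and WT at steady state. No source used here states the dose of irradiation, the Cre driver or deleted part of the knockout allele, the age of the mice or how many animals made up a library. The study asked how loss of Twist1, the gene of a helix-loop-helix transcription factor, bears on LT-HSCs and their mitochondrial gene programme, at rest and after stress.

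Mitophagy is the removal of whole mitochondria by autophagy. A mitochondrion is marked either by receptors in its outer membrane (the proteins of Bnip3, Bnip3l and Fundc1), which bind Atg8-family proteins on the growing autophagosome directly, or by PINK1, a kinase that accumulates on depolarised mitochondria and phosphorylates ubiquitin there. ULK1 starts the autophagosome, LC3B and the GABARAP proteins coat its membrane, and p62, the product of Sqstm1, links ubiquitinated cargo to them. In mouse haematopoiesis, Bnip3l is needed to clear mitochondria from maturing red cells, and FOXO3 maintains stem cells and drives autophagy genes in them.

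The values are FPKM, reads scaled by gene length and library size by the authors, so that levels can be compared between genes. Each group is a single library, so differences lack any check by replicates and no p-value is given. Intervals in parentheses after a level or a ratio are exact 95% counting intervals from reads recovered from the FPKM values, and cover counting error only. Recovered reads summed to between 20348649 and 25100601 per library. Twist1, the targeted gene, had 0 reads in the irradiated cKO library and 5 in the irradiated WT library, and 2 in the steady-state cKO library and 6 in the steady-state WT library. The irradiated and steady-state libraries also differed in sex-linked transcripts. Xist had 0.573 and 1.0 FPKM in the irradiated cKO and WT libraries, against 0.0155 and 0.0171 FPKM at steady state, and the Y-linked Ddx3y had 0.0164 and 0.0521 FPKM, against 12.4 and 10.2 FPKM.

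Markers of the labelled cell type were lower after irradiation. The 16 LT-HSC marker genes summed to 274 FPKM in the irradiated cKO and 112 FPKM in the irradiated WT library, against 759 FPKM in the steady-state cKO and 857 FPKM in the steady-state WT library. Of these genes, 10 of the 11 that reached 5 FPKM were at least 1.5-fold lower in the irradiated cKO library than at steady state, and 10 of 10 in the WT library. Erythroid markers ran the other way: their summed level (25 of 26 listed genes matched) was 17303 FPKM in the irradiated cKO and 14398 FPKM in the irradiated WT library, against 2827 FPKM in the steady-state cKO and 4238 FPKM in the steady-state WT library. Other lists were counted at 1.5-fold as well, some of them on few genes. Over all genes kept, 20.8% were that much higher and 34.6% lower in cKO, and 34.9% higher and 26.9% lower in WT. Macrophage and monocyte markers were higher after irradiation in 11 of 13 in cKO, and lower in 11 of 13 and higher in 1 in WT. Neutrophil markers were lower in 6 of 9 and higher in 1 in cKO, and lower in 7 of 7 in WT. B and plasma cell markers were higher in 2 of 5 and lower in 1 in cKO, and lower in 5 of 5 in WT, and T and NK cell markers were higher in 2 of 6 and lower in 3 in cKO, and lower in 5 of 5 in WT. No marker of these lists was at 0 in all 4 libraries. In bulk RNA, fewer cells of a type and less RNA per cell cannot be told apart. The contributions of cell make-up and of sex to the differences between irradiated and steady-state libraries were not tested.

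Most of the genes were abundant. Map1lc3b was the highest of them in both steady-state libraries, at 89.1 FPKM (87.7 to 90.4) in cKO and 86.0 FPKM (84.7 to 87.3) in WT, and Bnip3l was the highest in both irradiated libraries, at 54.2 FPKM (52.7 to 55.7) in cKO and 70.1 FPKM (68.3 to 71.9) in WT. In the steady-state WT library the order of levels ran Map1lc3b, Bnip3l, Sqstm1, Gabarapl1, Gabarapl2, Pink1, Fundc1, Bnip3, Foxo3 and Ulk1, and the intervals of Foxo3 and Ulk1 alone overlapped. In the irradiated cKO library the order ran Bnip3l, Map1lc3b, Sqstm1, Gabarapl1, Gabarapl2, Fundc1, Pink1, Bnip3, Foxo3 and Ulk1. There the neighbours Map1lc3b and Sqstm1, Pink1 and Bnip3, and Foxo3 and Ulk1 were not apart beyond counting error. In the steady-state cKO library Gabarapl1 stood next after Map1lc3b. Foxo3 and Ulk1 stayed below 5 FPKM in every library, and the other 8 genes were above 13 FPKM in all 4.

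**Figure D1:**
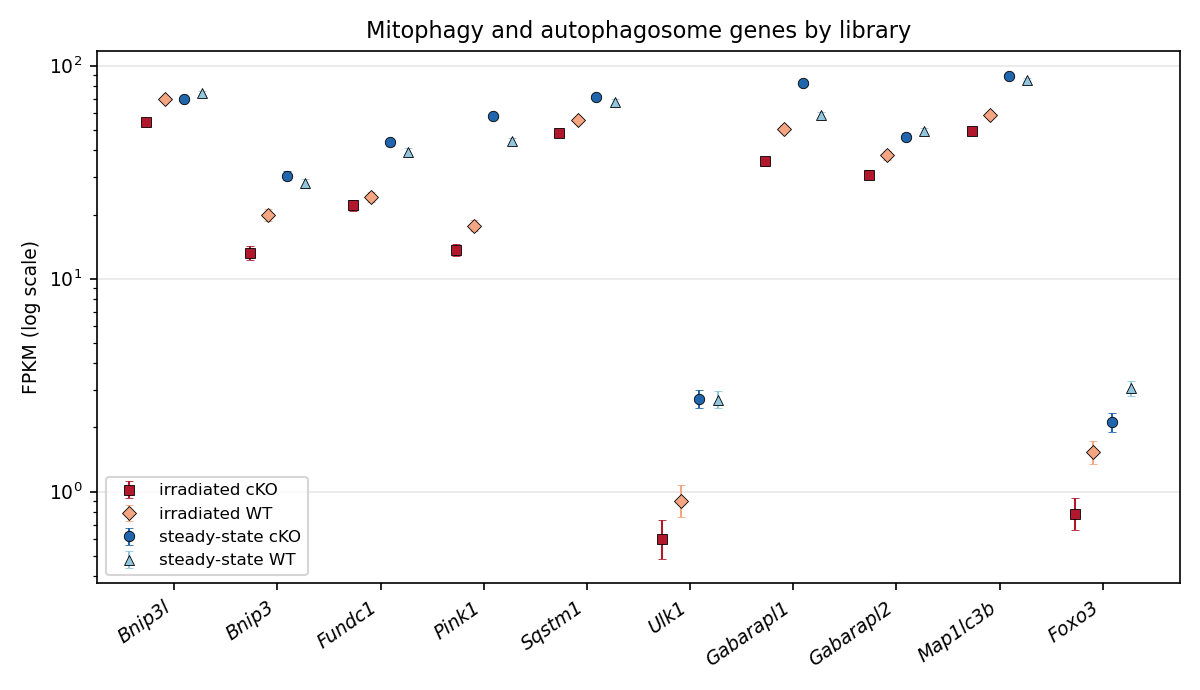
FPKM of the 10 genes on a log axis, with 1 point per library and exact 95% counting intervals. For every gene both irradiated libraries lie below the steady-state library of the same genotype, most clearly for Pink1 and Ulk1, while Bnip3l spans only 54.2 to 74.6 FPKM.

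The first question was how these genes stood after irradiation within each genotype. All 10 were lower in the irradiated library in both genotypes, and the 2 comparisons share no library. Differences on the log2 scale of FPKM + 1 ran from -2.02 (Pink1) to -0.35 (Bnip3l) in cKO and from -1.28 (Pink1) to -0.09 (Bnip3l) in WT. Over all genes that reached 5 FPKM in either library of a pair the median difference was -0.20 in cKO (7393 genes) and 0.21 in WT (7418 genes), and the median of the 8 genes of the group that reach this level was -0.89 in cKO and -0.42 in WT. All 10 lay below the median of all genes kept in both comparisons under each of the 9 alternative settings run. The plain direction was kept by all 10 genes under every scaling except that by the upper quartile, where 5 of 10 in WT and 3 of 10 in cKO turned positive.

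Counted at 1.5-fold on the same scale, 5 of the 8 genes were lower in the irradiated cKO library, namely Pink1, Gabarapl1, Bnip3, Fundc1 and Map1lc3b, where 34.6% of all genes were that much lower. In WT 2 of the 8 were lower, Pink1 and Fundc1, which is close to the background of 26.9%. None of the 8 was at least 1.5-fold higher in either genotype, where 20.8% of all genes were higher in cKO and 34.9% in WT. The WT count depended on the scale: with FPKM rescaled to the recovered read totals it was 4 of 8 against a background of 31.6%, adding Bnip3 and Map1lc3b, and the cKO count was again 5 of 8 against 34.5%. Centred on the median of all genes, 4 of 8 were lower in WT (background 31.7%) and 5 of 8 in cKO (background 28%), and none was higher (26.7% and 28%). With read totals none was higher either (26.7% in WT and 21.1% in cKO). A library size implied by the authors' FPKM was between 0.895 (irradiated WT) and 1.15 (irradiated cKO) times the reads recovered in genes, which is what this rescaling removes.

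Pink1 (chromosome 4, 138313409 to 138326296 in GRCm38) had the largest difference on the log2 scale of FPKM + 1, while the rarer Ulk1 had larger ratios. It had 13.6 FPKM in the irradiated cKO and 17.7 FPKM in the irradiated WT library, against 58.2 FPKM in the steady-state cKO and 44.3 FPKM in the steady-state WT library. The irradiated level was 4.27-fold lower (3.96 to 4.6) in cKO and 2.50-fold lower (2.33 to 2.69) in WT. Its difference lay at percentile 8.12 of all genes kept in cKO and 15.6 in WT, so that many other genes were lower still.

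Of the outer membrane receptors, Bnip3 (chromosome 7, 138890836 to 138909506) had 13.2 FPKM in the irradiated cKO and 19.9 FPKM in the irradiated WT library, against 30.5 and 28.0 FPKM in the steady-state cKO and WT libraries. It was 2.30-fold lower (2.11 to 2.52) after irradiation in cKO and 1.4-fold lower (1.30 to 1.52) in WT. Fundc1 (chromosome X, 17519967 to 17572329) had 22.1 and 24.2 FPKM in the irradiated cKO and WT libraries, against 43.6 and 39.5 FPKM at steady state. That is 1.97-fold lower (1.84 to 2.11) in cKO and 1.63-fold lower (1.52 to 1.75) in WT, for a gene on the chromosome whose Xist level also separated these libraries.

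Bnip3l (chromosome 14, 66985238 to 67008877), the closest relative of Bnip3, had the smallest difference in both genotypes. It had 54.2 and 70.1 FPKM in the irradiated cKO and WT libraries, against 69.4 and 74.6 FPKM in the steady-state cKO and WT libraries, a level 1.28-fold lower (1.23 to 1.33) in cKO and 1.06-fold lower (1.03 to 1.10) in WT. The ratio of Bnip3 to Bnip3l, per length, was 0.244 (0.225 to 0.265) in the irradiated cKO and 0.285 (0.266 to 0.304) in the irradiated WT library, against 0.439 (0.417 to 0.463) in the steady-state cKO and 0.375 (0.356 to 0.396) in the steady-state WT library. This ratio does not depend on the scaling of a library. Reads may be shared with the annotated pseudogene Bnip3l-ps, which was listed at 2.37 and 3.08 FPKM in the irradiated and 4.35 and 3.86 FPKM in the steady-state cKO and WT libraries. The Bnip3l level after irradiation stood beside the higher erythroid markers given above, and their part in it was not tested.

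The Bnip3 promoter is shown because Bnip3 is a textbook target of the hypoxia-inducible factors, whose core motif was looked for in these genes. Sequences are RefSeq windows of GRCm38.p6 from 250 bases before to 50 bases after the start used for each gene, printed on the gene's strand. Of the 10 genes, 9 matched an entry. For Ulk1 and Fundc1 that start differed from the end of the gene interval given in this report. The Fundc1 window (chrX:17571958-17572257, minus strand) lay wholly inside the gene interval, so it holds no sequence upstream of that interval. Capitals mark the core motif ACGTG or GCGTG on either strand, with overlapping matches joined. The window lies on the minus strand at chr7:138909457-138909756.
Bnip3: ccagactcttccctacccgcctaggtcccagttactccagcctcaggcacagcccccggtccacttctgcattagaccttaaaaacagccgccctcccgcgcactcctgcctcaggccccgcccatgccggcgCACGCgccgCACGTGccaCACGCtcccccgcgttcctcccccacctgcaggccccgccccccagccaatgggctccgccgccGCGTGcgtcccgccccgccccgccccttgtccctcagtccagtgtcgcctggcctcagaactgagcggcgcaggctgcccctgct
It holds 5 matches, 2 of which overlap within CACGTG, the palindrome that is also the core of the CLEAR motif bound by TFEB. Map1lc3b held 5 matches as well, Foxo3 held 3, and Pink1, Ulk1 and Gabarapl2 held 1 each, so that 6 of 9 promoters had the core, against 43.8% of 32851 promoters of this length. Sqstm1, Gabarapl1 and Fundc1 had none in these windows. The core holds CG, and the 6 windows with it were 58% (Pink1) to 75% (Foxo3) G and C, beside a median of 52.7% over all promoters. The windows without it were 46.3% (Gabarapl1) to 63.3% (Sqstm1). The part of base composition in the count was not tested. The strings TGTTTAC, for FOXO, and AGATAA, for GATA, were not found on either strand of the 9 windows. Of all promoters, 3.65% and 11.2% held them. Only these single strings were searched, so other forms of the FOXO and GATA motifs may be present. A match is a description of letters and says nothing of binding.

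The autophagosome genes were lower after irradiation to differing degrees. Gabarapl1 (chromosome 6, 129533192 to 129542331) had 35.6 and 50.6 FPKM in the irradiated cKO and WT libraries, against 83.3 and 58.7 FPKM in the steady-state cKO and WT libraries. It was 2.34-fold lower (2.21 to 2.48) in cKO and 1.16-fold lower (1.10 to 1.23) in WT. Map1lc3b (chromosome 8, 121590438 to 121598760), the gene of LC3B, had 49.4 and 58.8 FPKM against 89.1 and 86.0 FPKM in the same order of libraries, 1.80-fold lower (1.76 to 1.85) in cKO and 1.46-fold lower (1.43 to 1.5) in WT. Gabarapl2 (chromosome 8, 111940703 to 111952915) had 30.7 and 37.9 FPKM against 46.3 and 49.2 FPKM. It was 1.51-fold lower (1.42 to 1.6) in cKO and 1.30-fold lower (1.23 to 1.37) in WT. Sqstm1 (chromosome 11, 50200152 to 50210820), the gene of the cargo adaptor p62, had 48.5 and 55.4 FPKM in the irradiated cKO and WT libraries, against 71.0 and 67.8 FPKM at steady state. After Bnip3l it was the gene with the smallest ratio in cKO, at 1.46-fold lower (1.41 to 1.52), and its WT ratio was 1.22-fold lower (1.17 to 1.27).

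Ulk1 and Foxo3 were rare transcripts with few reads, and they were among the genes with the largest ratios. Ulk1 (chromosome 5, 110784489 to 110810120), the initiating kinase, had 0.598 FPKM (91 reads) and 0.905 FPKM (130 reads) in the irradiated cKO and WT libraries, against 2.72 FPKM (446 reads) and 2.71 FPKM (457 reads) in the steady-state cKO and WT libraries. It was 4.55-fold lower (3.63 to 5.77) in cKO and 2.99-fold lower (2.46 to 3.66) in WT. Foxo3 (chromosome 10, 42181845 to 42276695) had 0.789 FPKM (140 reads) and 1.53 FPKM (256 reads) in the irradiated cKO and WT libraries, against 2.11 FPKM (404 reads) and 3.06 FPKM (604 reads) at steady state. Its level was 2.68-fold lower (2.21 to 3.27) in cKO and 2.01-fold lower (1.73 to 2.33) in WT. Both lie under the minimum of 5 FPKM and are not part of the counts at 1.5-fold.

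**Figure D2:**
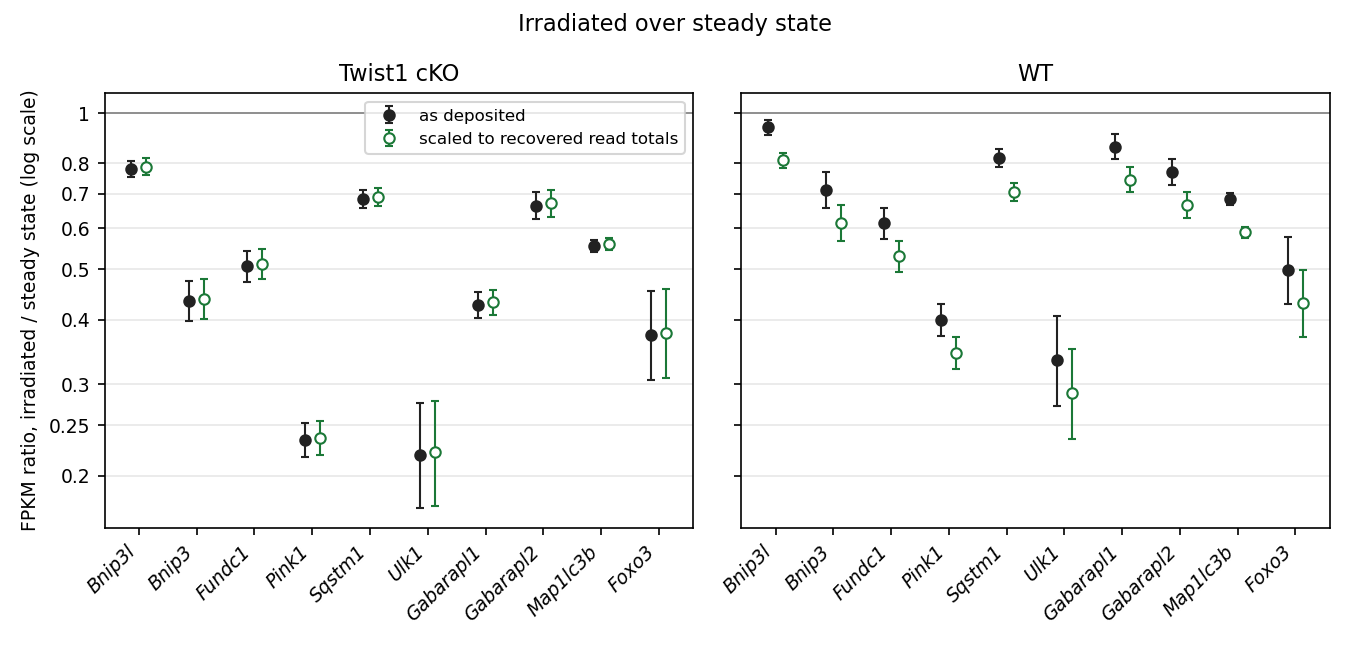
Ratio of irradiated to steady-state FPKM for each gene in Twist1 cKO and in WT, on a log axis with 95% counting intervals, as deposited (filled) and after rescaling to recovered read totals (open). All points lie below 1, and Pink1 and Ulk1 are lowest in both genotypes while Bnip3l is nearest to 1.

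The second question was whether the genes differed between genotypes at steady state. Gabarapl1 and Pink1 were higher in the cKO library and Foxo3 was lower, while the other 7 genes had ratios between 0.930 and 1.10. Gabarapl1 had 83.3 FPKM in cKO and 58.7 FPKM in WT, a ratio of 1.42 (1.35 to 1.49). Pink1 had 58.2 FPKM in cKO and 44.3 FPKM in WT, a ratio of 1.31 (1.25 to 1.38). On the log2 scale their differences of 0.50 and 0.38 lay at percentiles 97.5 and 95.5 of 7157 genes, whose median was 0.01. Foxo3 had 2.11 FPKM in cKO and 3.06 FPKM in WT, 1.45-fold lower (1.28 to 1.65), and stayed lower under every scaling run (1.32-fold, 1.16 to 1.5, with recovered read totals).

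No gene of the group was 1.5-fold apart in either direction on the log2 scale at steady state, where 1.77% of all genes were higher and 5.51% lower in the cKO library, nor when centred on the median (1.72% and 5.63%). With recovered read totals Gabarapl1 passed, at a ratio of 1.56 (1.49 to 1.64), where 2.93% of all genes were higher and 4.01% lower. Fundc1 (1.10, 1.04 to 1.17), Bnip3 (1.09, 1.02 to 1.16), Sqstm1 (1.05, 1.01 to 1.09) and Map1lc3b (1.04, 1.01 to 1.06) had ratios slightly above 1. Bnip3l (0.930, 0.900 to 0.961) and Gabarapl2 (0.941, 0.893 to 0.992) lay slightly below 1, and both turned above 1 with recovered read totals (1.02 and 1.03). Ulk1 was at 1.01 (0.881 to 1.15) and below 1 with upper quartile scaling. Beside these differences, 11 of 12 macrophage and monocyte markers were lower and 8 of 9 neutrophil markers higher in cKO by 1.5-fold or more, with sums of 1352 FPKM in cKO and 2568 FPKM in WT for the first list and 2716 and 1627 FPKM for the second. B and plasma cell markers were lower in 3 of 5 and erythroid markers in 5 of 16, with 0 higher in both lists. No T and NK cell or LT-HSC marker was that far apart. The part of these markers in the genotype differences was not tested.

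The promoters of Pink1 and Gabarapl1, the genes furthest above 1 at steady state, are shown because Twist1 encodes a factor that binds E-boxes (CANNTG). Capitals mark every E-box, which reads the same pattern on both strands. The windows lie at chr4:138326247-138326546 on the minus strand and chr6:129532942-129533241 on the plus strand.
Pink1: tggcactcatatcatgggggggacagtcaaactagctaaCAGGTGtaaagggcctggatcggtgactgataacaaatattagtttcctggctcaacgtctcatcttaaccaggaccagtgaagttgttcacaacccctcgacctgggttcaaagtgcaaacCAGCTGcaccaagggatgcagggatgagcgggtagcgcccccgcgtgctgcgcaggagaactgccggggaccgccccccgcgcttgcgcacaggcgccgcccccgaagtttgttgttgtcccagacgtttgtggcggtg
Gabarapl1: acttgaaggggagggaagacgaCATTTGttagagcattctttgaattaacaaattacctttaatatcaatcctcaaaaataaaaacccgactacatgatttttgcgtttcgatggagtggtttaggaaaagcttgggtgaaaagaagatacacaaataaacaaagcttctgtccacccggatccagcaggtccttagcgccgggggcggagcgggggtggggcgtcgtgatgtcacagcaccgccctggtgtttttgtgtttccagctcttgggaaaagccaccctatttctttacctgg
Pink1 held 2 E-boxes and Gabarapl1 held 1. Of the 9 windows, 6 held at least 1 E-box, that of Fundc1 inside the gene among them, against 72.3% of all promoters of this length. The variants CATATG and CAGATG were in 0 and 1 (Map1lc3b) of the 9 windows, and in 3.91% and 17.2% of all promoters. The windows say nothing of binding by TWIST1.

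After irradiation all 10 genes had lower FPKM in the cKO library than in WT, but so did most genes: 87.5% of the 6348 genes kept were below 0 and their median was -0.45. Other scalings moved that median to between -0.40 and -0.08, and values are therefore best read against it. Relative to the median of all genes kept at 5 FPKM, 7 of the 10 were above and 3 (Bnip3, Gabarapl1 and Foxo3) below. This count depended on the minimum. At a minimum of 1 FPKM the median was -0.31, with 5 of the 10 above and 5 below. With no minimum the median was 0, with 0 above and 10 below. Relative differences ran from -0.11 for Bnip3 to 0.32 for Fundc1, and none of the 8 genes at 5 FPKM or more was 1.5-fold apart as deposited (backgrounds 7.42% higher and 24.6% lower) or centred on the median (10.7% and 0.977%) or with read totals (10.9% and 1.36%).

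With recovered read totals, Fundc1 (22.1 FPKM in cKO and 24.2 FPKM in WT as deposited) had a cKO to WT ratio of 1.18 (1.09 to 1.27), Sqstm1 of 1.13 (1.08 to 1.18) and Map1lc3b of 1.08 (1.05 to 1.11). Bnip3l (0.995, 0.958 to 1.03), Pink1 (0.990, 0.903 to 1.08), Gabarapl2 (1.04, 0.976 to 1.11) and Ulk1 (0.851, 0.644 to 1.12) had intervals that include 1. Gabarapl1 was at 0.905 (0.849 to 0.965) and Bnip3 at 0.855 (0.775 to 0.942). Foxo3 stood lowest again, at 0.665 (0.537 to 0.820) with read totals and 0.516 (0.417 to 0.637) as deposited. Relative to the median of all genes, however, the irradiated Foxo3 difference was -0.05 on the log2 scale, at percentile 40.7. At levels this low that place depends on the pseudocount. With a pseudocount of 0.1 the Foxo3 difference was -0.87, beside a median of -0.48, and with a pseudocount of 5 alone it lay above the median. It rests on 140 reads in cKO and 256 in WT. In these libraries 13 of 13 macrophage and monocyte markers and 8 of 8 neutrophil markers were higher in cKO by 1.5-fold or more. Sums were 2686 FPKM in cKO and 1383 FPKM in WT for the first list and 1345 and 443 FPKM for the second. B and plasma cell markers were higher in 5 of 5, and T and NK cell markers in 4 of 5. Of 19 erythroid markers 8 were higher and 4 lower, and of 2 LT-HSC markers 1 was higher and 1 lower. Over all genes 7.42% were that much higher in cKO and 24.6% lower. The part of these cell type markers in the values above was not tested.

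**Figure D3:**
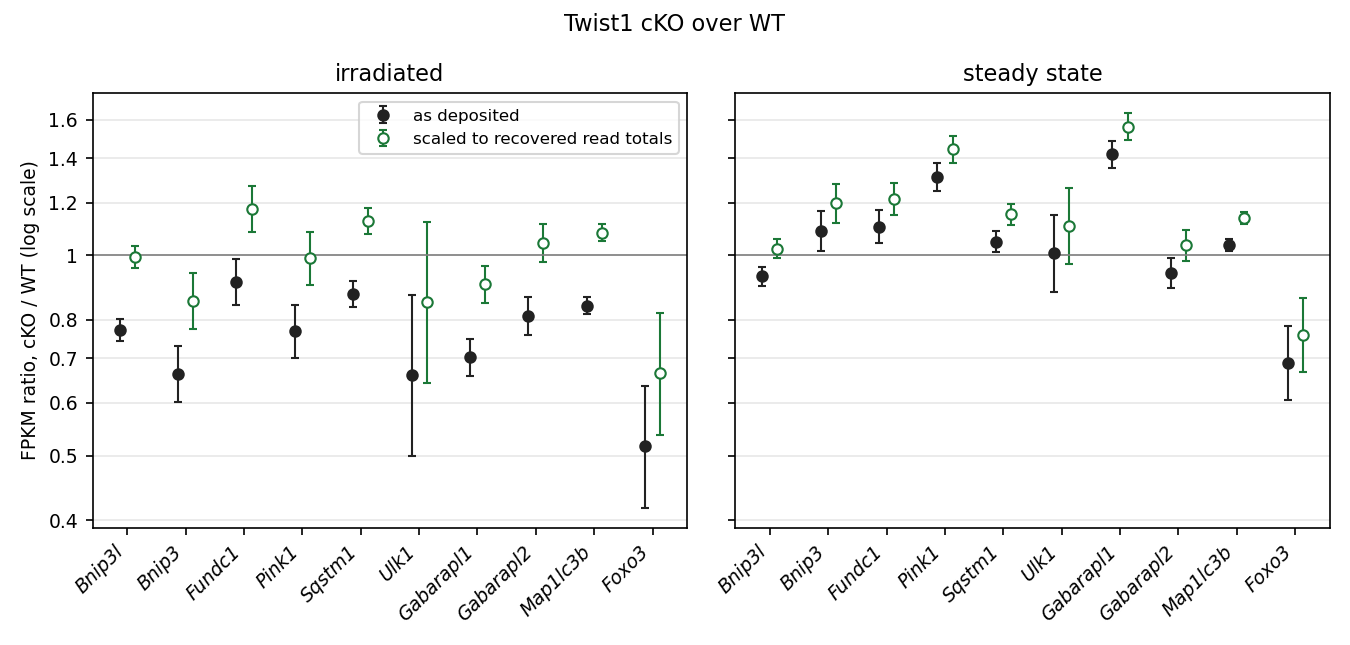
Ratio of Twist1 cKO to WT FPKM for each gene after irradiation and at steady state, on a log axis with 95% counting intervals, as deposited (filled) and after rescaling to recovered read totals (open). Gabarapl1 and Pink1 are highest at steady state, Foxo3 is lowest in both panels, and the rescaling moves all irradiated ratios upwards.

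The difference of differences, the irradiated cKO minus WT value less the steady-state one, compares the genotype effect between conditions and uses all 4 libraries. It was negative for all 10 genes, beside a median of -0.44 over the 5733 genes kept in both comparisons. Gabarapl1 had -0.99, at percentile 1.53 of those genes, Pink1 -0.74 (percentile 7.40) and Bnip3 -0.67 (percentile 13.4). The remaining 7 genes ran from -0.30 (Map1lc3b) to -0.11 (Foxo3) and lay above that median on the scale of FPKM + 1. Of these, Ulk1 (-0.26) and Foxo3 were not among the genes kept, and at their low levels the place depends on the pseudocount. With a pseudocount of 0.1 the irradiated cKO minus WT value moved from -0.25 to -0.53 for Ulk1 and from -0.50 to -0.87 for Foxo3. The steady-state value stayed at 0.01 for Ulk1 and moved from -0.38 to -0.52 for Foxo3. Their place against all genes was not computed at that pseudocount. The higher Gabarapl1 and Pink1 levels of the steady-state cKO library were thus not found after irradiation.

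Shares of the Atg8 family within a library do not depend on scaling. Its 5 transcripts (Map1lc3b, Gabarapl1, Gabarapl2, Gabarap and Map1lc3a) summed to 185 FPKM in the irradiated cKO and 217 FPKM in the irradiated WT library, against 319 FPKM in the steady-state cKO and 322 FPKM in the steady-state WT library. Map1lc3b made up a nearly constant part of the sum, between 26.7% and 27.9%. Gabarapl1 made up 19.2% and 23.3% in the irradiated cKO and WT libraries, against 26.1% in the steady-state cKO and 18.3% in the steady-state WT library. Gabarap made up 32.1% and 28.6% in the irradiated cKO and WT libraries, against 22.1% in the steady-state cKO and 28.7% in the steady-state WT library. Map1lc3a, the gene of LC3A, was the smallest part, at 5.38% and 3.64% in the irradiated and 9.30% and 11.0% in the steady-state cKO and WT libraries.

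**Figure D4:**
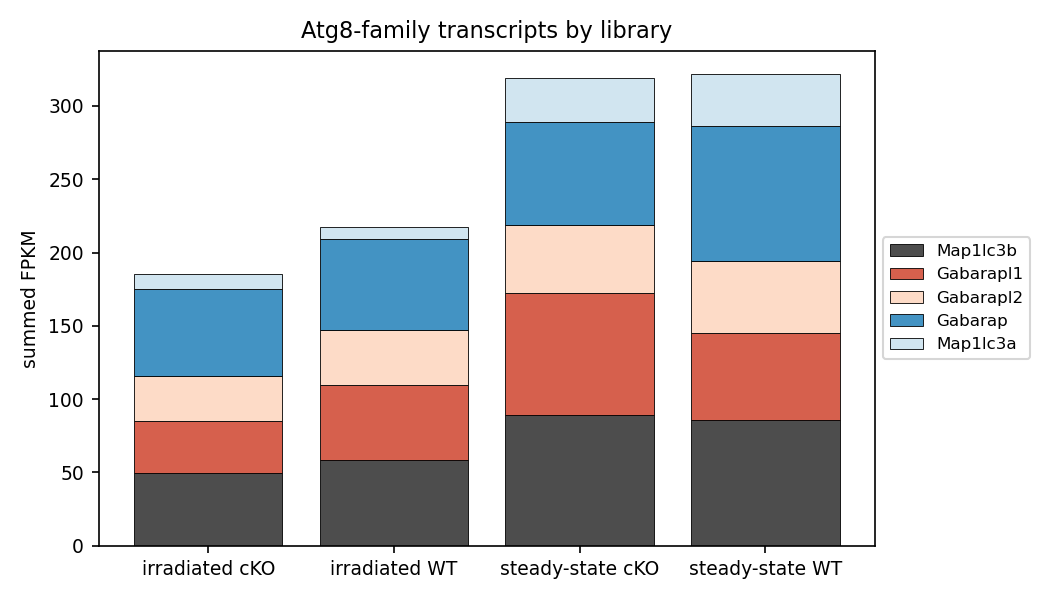
Summed FPKM of the 5 Atg8-family transcripts in each library, stacked by gene. The irradiated libraries sum to 185 and 217 FPKM, against 319 and 322 FPKM at steady state, and the Gabarapl1 segment is largest in the steady-state cKO library.

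Other genes of the pathway, taken from 7 lists, differed less evenly after irradiation. Counts are read against all genes, of which 20.8% were higher and 34.6% lower in cKO and 34.9% higher and 26.9% lower in WT. Of 20 genes of autophagosome initiation and nucleation, 10 were kept, and 0 were higher and 3 lower by 1.5-fold in cKO, with 1 higher and 1 lower in WT, shares at or under those of all genes. Centred on the median of all genes, 1 was higher and 3 lower in cKO, and 1 higher and 2 lower in WT. Atg14, a subunit of the lipid kinase complex that nucleates the autophagosome, was lowest in both genotypes, at 1.85 FPKM in the irradiated and 8.0 FPKM in the steady-state cKO library and at 2.15 and 6.76 FPKM in the WT libraries. Of 13 genes of Atg8 conjugation, 2 of 10 kept were lower and 0 higher in cKO, and 1 of 9 lower and 2 higher in WT. Centring turned the balance in WT, to 4 lower and 0 higher, and gave 2 lower and 0 higher in cKO. Map1lc3a was 2.98-fold lower (2.60 to 3.42) in cKO and 4.48-fold lower (3.85 to 5.22) in WT, whereas Atg4b, a protease that trims Atg8 proteins, was 1.79-fold higher (1.67 to 1.92) in WT. Among 15 genes of autophagosome fusion, 3 of 10 kept were lower and 0 higher in cKO, and 1 of 10 lower and 2 higher in WT. Centred, 2 were lower and 2 higher in cKO, and 1 lower and 0 higher in WT, so the higher counts changed genotype. Lamp2, a lysosomal membrane protein gene, was lower after irradiation in both genotypes (8.22 against 15.5 FPKM in cKO and 8.66 against 15.6 FPKM in WT).

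Other mitophagy genes went both ways. Their median difference was 0.01 in cKO and 0.29 in WT. Of 24 listed, 3 of 19 kept were higher and 8 lower in irradiated cKO, and 7 of 20 were higher and 3 lower in irradiated WT. Centred, 4 were higher and 5 lower in cKO, and 5 higher and 4 lower in WT. Phb2, which encodes an inner membrane mitophagy receptor, was 2.82-fold higher (2.72 to 2.92) in cKO and 4.38-fold higher (4.24 to 4.52) in WT. Bcl2l13, an outer membrane receptor gene, was higher as well, at 7.02 against 3.26 FPKM in cKO and 10.1 against 3.34 FPKM in WT. Nipsnap2, whose product marks damaged mitochondria, was 3.99-fold lower (3.57 to 4.46) in cKO and 3.21-fold lower (2.87 to 3.59) in WT, and Nbr1, a p62-like adaptor gene, was 2.69-fold (2.44 to 2.99) and 2.45-fold (2.19 to 2.74) lower. Between genotypes at steady state none of the genes kept in these 4 lists was 1.5-fold apart, where 1.77% of all genes were higher and 5.51% lower in cKO. After irradiation Phb2 (133 FPKM in cKO and 224 FPKM in WT) and Stx17 alone were, both lower in cKO. Over all genes 24.6% were that much lower in cKO and 7.42% higher. Neither gene was 1.5-fold apart when centred on the median of all genes (0.977% lower and 10.7% higher). Centring instead placed Map1lc3a higher in cKO, at 0.75 above the median on the log2 scale (9.97 FPKM in cKO and 7.91 FPKM in WT).

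Genes described as FOXO3 targets included several with large differences. Of 15 listed, 9 were kept, and 5 were at least 1.5-fold lower after irradiation in both genotypes, with 1 higher in cKO and 2 in WT. Over all genes 34.6% were lower and 20.8% higher in cKO, and 26.9% lower and 34.9% higher in WT. Centred, 5 were lower and 1 higher in each genotype. The median difference of the 9 genes was -1.95 in cKO and -1.53 in WT on the log2 scale. Txnip, an inhibitor of thioredoxin, had 4.15 FPKM in the irradiated and 36.9 FPKM in the steady-state cKO library, and 3.87 and 41.6 FPKM in the WT libraries. Ccng2, the cyclin G2 gene, was 9.01-fold (7.86 to 10.4) and 7.17-fold (6.15 to 8.40) lower. Sod2, which encodes mitochondrial superoxide dismutase, was higher, at 84.8 against 44.6 FPKM in cKO and 125 against 48.9 FPKM in WT. At steady state Klf6 alone of the 9 was 1.5-fold apart between genotypes, at 163 FPKM in cKO and 88.5 FPKM in WT. Over all genes 1.77% were that much higher in cKO there and 5.51% lower. The list of the FoxO and TFEB factors and of nutrient sensing holds 21 genes. After irradiation 2 of 6 kept were higher and 2 lower in cKO, and 3 of 7 higher and 1 lower in WT. Centred, 3 were higher and 1 lower in cKO, and 3 higher and 2 lower in WT. Prkaa1 and Prkag1, subunits of AMP-activated protein kinase, were higher after irradiation in both genotypes. Their levels were 1.68-fold (1.53 to 1.85) and 1.75-fold (1.56 to 1.96) higher in cKO, and 2.52-fold (2.30 to 2.76) and 2.54-fold (2.29 to 2.82) higher in WT. Stk11, the gene of their upstream kinase LKB1, was 2.34-fold lower (2.06 to 2.67) in the steady-state cKO library than in WT.

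**Figure D5:**
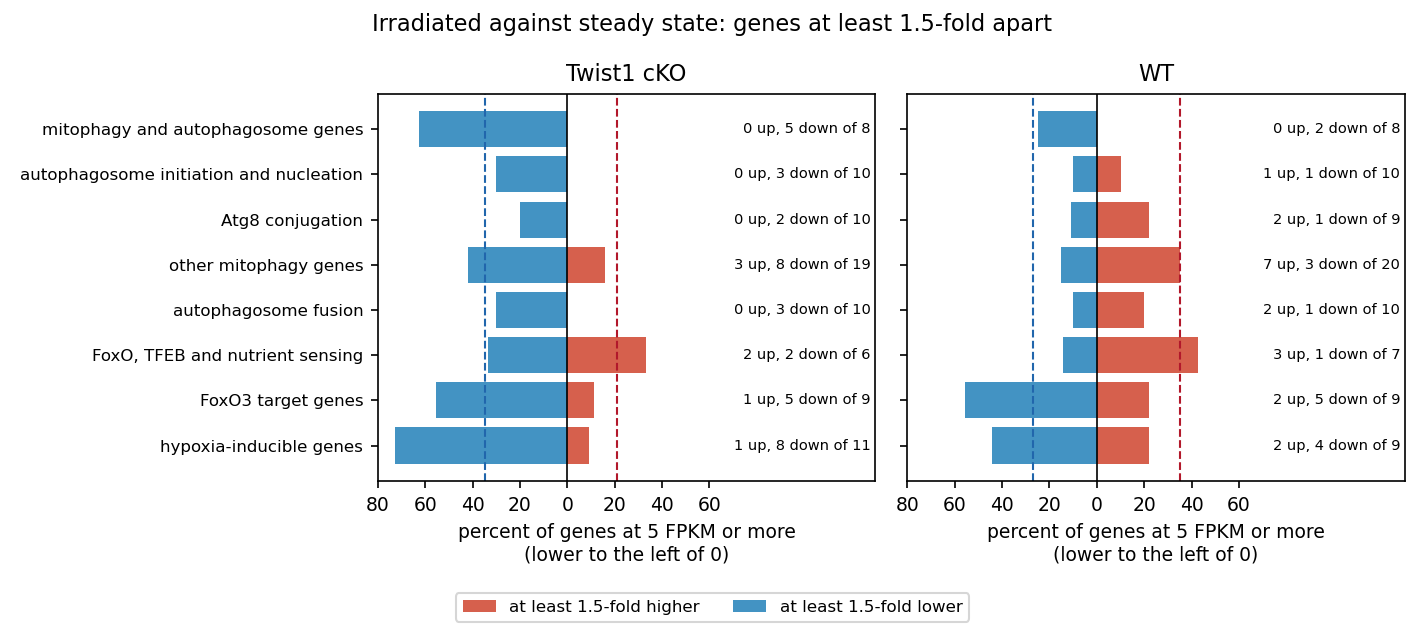
Percent of the genes at 5 FPKM or more in each list that were at least 1.5-fold higher (right) or lower (left) in irradiated libraries than at steady state, for Twist1 cKO and WT, with counts at the side. Dashed lines give the same percent over all genes (20.8% higher and 34.6% lower in cKO, 34.9% and 26.9% in WT).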

How the data were processed

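The authors deposited gene-level FPKM for each RNA-seq library. The submitters' processing notes name the build mm10 and the tools HOMER, MACS2 2.1.0, BWA 0.7.12-r1039 and Bowtie, without saying which made these values. Of 30409 identifiers, 30231 had a symbol. The 2 ATAC-seq samples were not analysed here. Differences are log2 of FPKM + 1 on the deposited values, and a comparison kept genes that reached 5 FPKM in either of its libraries, so counts at 1.5-fold cover 8 of the 10 genes. Relative library sizes were read from the commonest ratio of low values, and the absolute size from 12 of 13 mitochondrial genes with RefSeq lengths. Each gene's reads are those of the smallest whole length that makes all its values whole (within 0.0005 reads, plus rounding), and can be low by a whole factor, which widens the intervals. Recovery of reads and calls were checked on simulated data made with the same library sizes. The estimate of those sizes was therefore not checked. Ratio intervals are conditional exact binomial and level intervals Clopper-Pearson. The genes, lists, motifs and thresholds were chosen with earlier results of these data known. All 10 genes are named. From the other lists, the 2 highest and 2 lowest genes of each comparison could be named, and Bnip3l-ps was named outside that rule, after its values were seen. Alternatives were pseudocounts of 0.1 and 5, a minimum of 1 FPKM or no minimum, median-of-ratios, upper quartile and read total scaling, leaving out the 50 most abundant genes, and centring on the median of all genes. Analysis used Python 3.11.15, scipy 1.17.1 and pandas 2.3.3.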

Additional observations from a re-analysis of the deposited data

Results flagged for a closer look

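For 6 genes the deposited FPKM were higher in the cKO than in the WT library at steady state and lower in the cKO library after irradiation, with both counting intervals away from 1. The differences of differences were -0.99 for Gabarapl1, -0.74 for Pink1, -0.67 for Bnip3, -0.30 for Map1lc3b, -0.27 for Fundc1 and -0.26 for Sqstm1. The median over all 5733 genes kept in both comparisons was -0.44, and 51.5% of all genes were above 0 at steady state and 87.5% below 0 after irradiation. The share of all genes that met both conditions was not counted, so the count of 6 has no background to be read against. Map1lc3b, Fundc1 and Sqstm1 lay above the median of -0.44, at percentiles 70.8, 73.9 and 74.8. With 1 library per group the difference between conditions was not tested. With recovered read totals the cKO to WT ratios lay on opposite sides of 1, with both intervals away from 1, for Gabarapl1 (0.905 after irradiation and 1.56 at steady state) and Bnip3 (0.855 and 1.2) only, and Map1lc3b, Fundc1 and Sqstm1 were above 1 in both conditions.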

How the results depend on the processing

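Counts of genes at least 1.5-fold apart moved as follows. For irradiated against steady-state WT, 2 genes were lower as deposited, 1 with upper quartile scaling, 6 without the 50 most abundant genes, and 4 each when centred on the median, scaled to recovered read totals, at a minimum of 1 FPKM and with no minimum, the last 2 because Foxo3 and Ulk1 then count. For irradiated against steady-state cKO, 5 were lower as deposited, 2 with upper quartile scaling, 4 with median-of-ratios scaling and 6 with a pseudocount of 0.1. The count was 7 without the 50 most abundant genes, at a minimum of 1 FPKM and with no minimum. For cKO against WT at steady state, 0 were higher as deposited and 1 without the 50 most abundant genes or with recovered read totals. After irradiation 0 were lower in cKO as deposited and 1 with a pseudocount of 0.1. Where no reason is given, the cause was not tested. Of 280 single-gene values under an alternative, 134 moved beyond the main counting interval and no value past 1.5-fold changed sign, while values nearer 0 did under some scalings. No paired analysis was possible because each group holds 1 library. Depth limits Ulk1 and Foxo3 most, at 91 to 604 reads.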

Other observations

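Genes known to be induced by hypoxia, as Bnip3 is, had median differences of -0.91 in cKO and -0.55 in WT after irradiation, beside -0.20 and 0.21 over all genes. Of 16 listed, 8 of 11 kept were at least 1.5-fold lower and 1 higher in cKO, where 34.6% of all genes were lower and 20.8% higher. In WT 4 of 9 were lower and 2 higher, where 26.9% of all genes were lower and 34.9% higher. Slc2a1, the glucose transporter gene, was 7.28-fold lower (5.85 to 9.15) in cKO and 10.7-fold lower (8.09 to 14.5) in WT, and Ndrg1 was at an irradiated level of 0.453 against 10.3 FPKM at steady state in cKO and 1.04 against 7.89 FPKM in WT. Higd1a, which encodes an inner membrane protein of mitochondria, was higher after irradiation, at 136 against 55.6 FPKM in cKO and 223 against 69.7 FPKM in WT.

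Genes with the most similar pattern were taken as those whose log2 values, centred over the 4 libraries, deviated least at their worst library, among genes reaching 5 FPKM. For Bnip3l these were Tmem128, Erp44 and Enpp4, the last of them deviating by 0.028, and 161 of 6722 genes lay within 0.1. For Bnip3 they were Pskh1, Avpi1 and Sept4, the last deviating by 0.029, with 57 genes within 0.1. For Foxo3 they were Wasf2, Chd4 and Ctdnep1, the last deviating by 0.083, with 5 of 6723 genes within 0.1. With 4 libraries such likeness is a description only.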
